A study of Arabidopsis thaliana with 18 samples.

Results

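The expansins, xyloglucan endotransglucosylase/hydrolases (XTHs), and cellulose synthases of the Arabidopsis primary and secondary wall were followed in shoots of seedlings inoculated with the root endophyte Serendipita indica. The 44 members are the rows of 13 alpha-expansin genes (EXPA), 23 XTH genes including TCH4, which is XTH22, and CESA1 to CESA8, taken by gene identifier from the 33039 genes of the table. Of these, 40 reached at least 1 TPM in at least 3 of the 18 samples and were tested, namely 11 expansins, 21 XTHs, and 8 cellulose synthases. EXPA2 was listed at 0 in every sample, and EXPA14, XTH20, and XTH21 stayed below the filter.

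A growing plant cell is held by a wall of cellulose microfibrils coated and linked by the glucan xyloglucan, and it enlarges only as far as this network yields. Cellulose synthases are plasma membrane proteins that spin the microfibrils, with separate sets for the thin primary wall of growing cells and for the thick secondary wall of xylem and fibres. Expansins loosen the contacts between wall polymers at acid pH without cutting them, while XTHs cut xyloglucan and join the cut end to another chain or to water. In Arabidopsis shoots, genes of both families are known for responses to auxin, brassinosteroid, light, touch, and temperature, and single members can respond in opposite directions.

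The plants were wild type of the Col-0 ecotype. Every seedling was raised at 22°C on MS medium, was moved to PNM plates, and was 9 days old at inoculation. The aboveground parts were harvested 7 days post inoculation (dpi) from seedlings cocultured with S. indica (Si) and from seedlings without the fungus (CK), both kept at 22, 25, or 28°C, with 3 biological replicates in each of the 6 groups. The fungus grows in the root, which was not sampled, so the values concern the systemic response of the shoot, and the sources used here do not say how many seedlings made up a sample.

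The values are TPM, a transcript abundance scaled to gene length and to the same total in each sample, so the sequencing depth of a sample cannot be read from them. Between 17531 and 19509 genes reached 1 TPM in a sample. A gene was called at an adjusted p of at most 0.05 together with an absolute log2 fold change above 1, with limma on log2(TPM + 1) and Benjamini-Hochberg adjustment over 20044 genes. All fold changes below are on this log2(TPM + 1) scale, which understates the change of genes at low TPM. The median of all genes lay at 0.26, 0.26, and 0.22 for Si over CK at 22, 25, and 28°C, and close to 0 after median-of-ratios scaling. The summed level of 5 leaf marker genes lay between 17522 and 26066 TPM, with LHCB1.1 the 1 gene of the 5 called lower in Si at 22°C. At 25°C, this sum was 22376 to 23524 TPM in Si and 22375 to 22821 TPM in CK, with 3 of 5 lower by adjusted p alone, and at 28°C it was 17522 to 18587 TPM in Si and 20545 to 22253 TPM in CK, with 4 of 5 lower by adjusted p alone and a median log2 fold change of -0.48. The part of this difference in the results below was not tested. By contrast, 9 of 10 root markers stayed below the filter, and the summed level of all 10 was at most 3.19 TPM in Si samples and 9.46 TPM in CK samples. In such bulk samples, a change in the share of a cell type and a change in RNA per cell cannot be told apart.

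Many of these genes differed between Si and CK shoots at 1 or more temperatures, and the families went different ways. Expansins were higher in Si or did not pass, XTHs split into a set that was higher and a set that was lower, and the cellulose synthases moved little. At 22°C, 11 of the 40 members rose and 3 fell, against 8.0% higher and 1.34% lower among all genes tested. At 25°C, 15 rose and 9 fell, against 9.43% and 2.69% of all genes. At 28°C, 9 rose and 8 fell, against 7.95% and 1.72% of all genes. The 3 temperatures together gave 27 members called at least once, of which 18 rose, 9 fell, and 0 were called in both directions. The shares of all genes for these combined counts were not computed, so the counts only describe the members. EXPA5, EXPA6, EXPA10, XTH7, and XTH17 rose at all 3 temperatures, and XTH15, XTH24, and XTH25 fell at all 3. The members' median log2 fold change was 0.61, 0.39, and 0.22 at 22, 25, and 28°C. How often Si and CK samples were apart among all genes was not computed, so such statements below only describe the members.

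**Figure D1:**
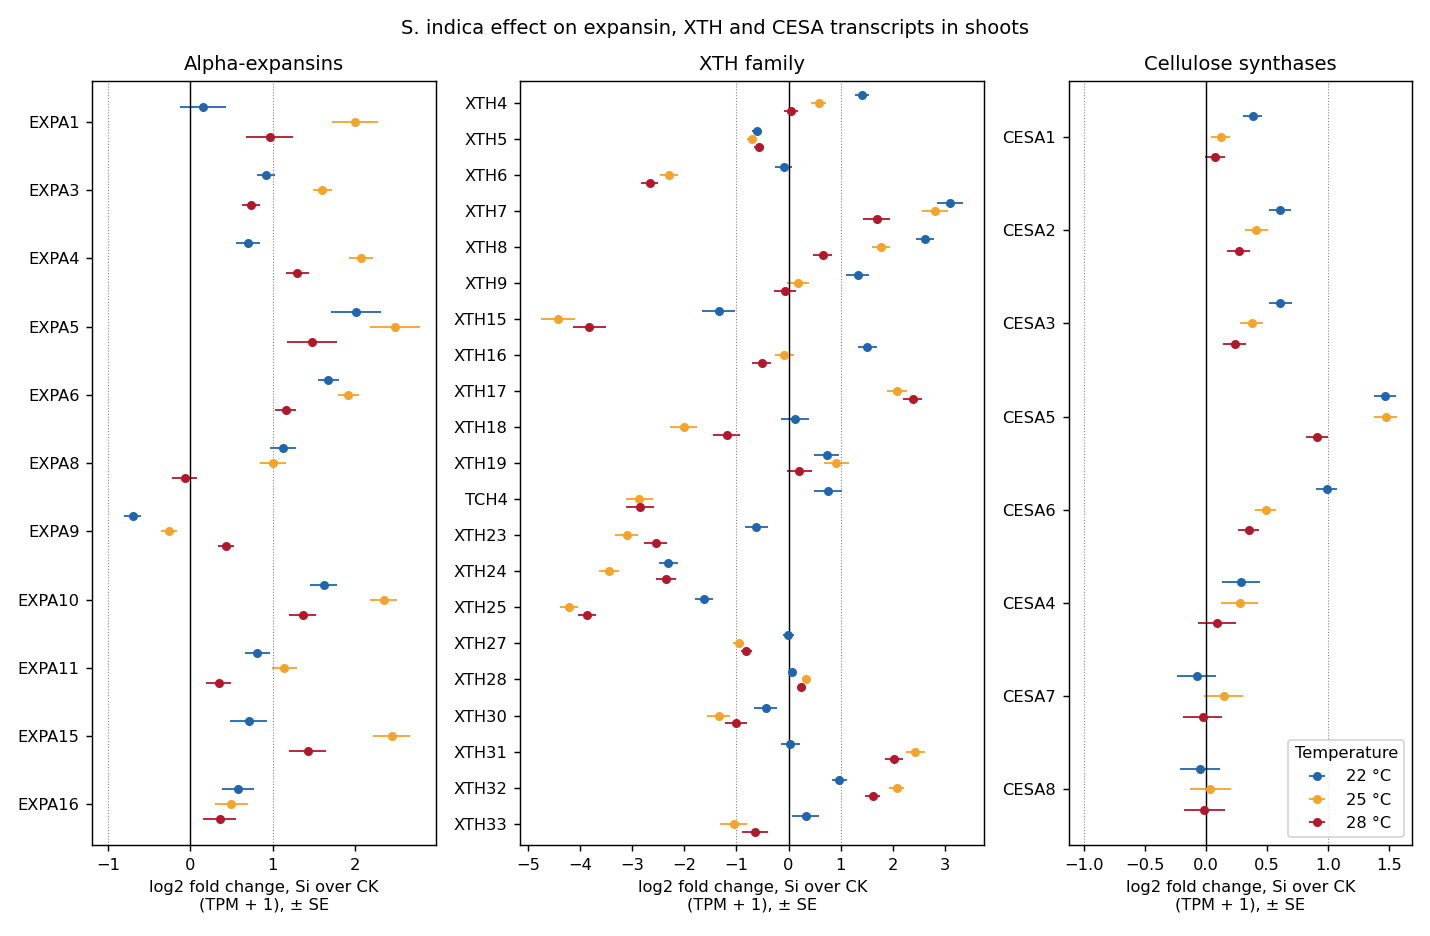
Log2 fold change of Si over CK (x axis, log2(TPM + 1) scale, ± SE from the limma fit) for the tested members (y axis) at 22, 25, and 28°C, with dotted lines at a change of 1 in each direction. Most expansins lie right of 0, the XTHs spread from -4.42 for XTH15 at 25°C to 3.1 for XTH7 at 22°C, and the cellulose synthases span the narrowest range, with CESA5 and, at 22°C, CESA6 farthest from 0. XTH17 at 22°C has no point because CK was listed at 0.

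Most expansins were higher in Si than in CK shoots, with the largest median change at 25°C. Of the 11 tested, 4 rose at 22°C, 9 rose at 25°C, and 5 rose at 28°C. None of the 11 fell at any of these temperatures (0 called lower). Their median log2 fold change was 0.82, 1.92, and 0.96 at 22, 25, and 28°C. The summed level of the 13 genes was 284 ± 58.8 TPM in Si and 165 ± 23.3 TPM in CK at 22°C (SD, n = 3 each). At 25°C, the sum was 505 ± 63.6 TPM in Si and 150.2 ± 6.57 TPM in CK, and at 28°C it was 451 ± 50.1 TPM in Si and 254 ± 20.1 TPM in CK. The Si samples lay above the CK samples in this sum at each of the 3 temperatures.

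EXPA1 and EXPA10 are shown with the 250 bases before their annotated starts because both rose strongly at 25°C and because their promoters share a rare run of letters. EXPA1 is known for its part in guard cell walls and stomatal opening, and EXPA10 for promoting leaf and petiole growth. The sequences were read from the RefSeq assembly TAIR10.1, 5′ to 3′ on the coding strand of each gene. Capitals mark matches, on either strand, to the PBE-box CACATG, to which phytochrome interacting factors are known to bind, and to the brassinosteroid response element CGTGTG or CGTGCG.
EXPA1, chr1:26141476-26141725, plus strand: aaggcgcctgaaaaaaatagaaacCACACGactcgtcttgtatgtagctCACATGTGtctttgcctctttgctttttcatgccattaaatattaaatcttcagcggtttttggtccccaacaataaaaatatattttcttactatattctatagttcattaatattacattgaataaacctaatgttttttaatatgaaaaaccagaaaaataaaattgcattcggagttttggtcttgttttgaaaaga
EXPA10, chr1:9259182-9259431, plus strand: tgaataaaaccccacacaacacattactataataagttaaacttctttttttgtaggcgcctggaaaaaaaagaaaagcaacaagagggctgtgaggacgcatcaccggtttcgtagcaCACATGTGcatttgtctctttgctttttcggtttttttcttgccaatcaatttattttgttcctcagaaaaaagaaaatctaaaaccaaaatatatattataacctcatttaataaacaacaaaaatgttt
Both hold CACATGTG, in which the PBE-box reads on both strands with overlap, and this run is present in the same window of 103 of 27443 protein-coding genes (0.375%) and in 2 of the 44 members. The single PBE-box was in 11.1% of all these promoters and in 9 of the 44 members, of which 4 are expansins, 4 are XTHs, and 1 is a CESA gene. The brassinosteroid element was in 6.71% of all promoters and in 6 members, and the G-box CACGTG was in 6.49% of all promoters and in 0 members. The longest run of letters shared by the EXPA1 and EXPA10 windows has 14 bases, ctctttgctttttc. EXPA1 and EXPA10 were picked partly for the shared run, so its count among the members carries no weight. EXPA4, EXPA5, and EXPA15 changed more than EXPA1 at 25°C (2.07, 2.49, and 2.45 against 2.0) and hold no PBE-box in this window. The motif matches are a description of the letters and were not tested against the expression values.

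EXPA1 was the most abundant expansin in CK shoots. At 22°C, EXPA1 had 113, 73, and 39.6 TPM in Si, against 78.6, 53.5, and 56.4 TPM in CK. At 25°C, it had 240.0, 196, and 150.2 TPM in Si, against 51.9, 45, and 45.2 TPM in CK. At 28°C, it had 141, 156, and 122 TPM in Si, against 80.1, 78.1, and 56.6 TPM in CK. The Si and CK samples overlapped at 22°C, where the 3 Si samples were widely spread, and were apart at 25 and 28°C. EXPA1 rose only by the 25°C comparison (2.0 ± 0.281 SE, adjusted p = 1.93e-05 in limma), with 0.96 ± 0.281 at 28°C (adjusted p = 0.009) and 0.15 ± 0.281 at 22°C (adjusted p = 0.667). The value at 22°C turned negative under median-of-ratios scaling and quantile normalization.

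EXPA10 had lower levels and rose at every temperature. At 22°C, EXPA10 had 14, 11, and 12.7 TPM in Si, against 3.33, 4.01, and 2.9 TPM in CK. At 25°C, EXPA10 had 23.1, 19.5, and 15.4 TPM in Si, against 2.83, 2.39, and 3.72 TPM in CK. At 28°C, EXPA10 had 18.9, 17.9, and 13.8 TPM in Si, against 6.5, 6.33, and 4.91 TPM in CK. No Si sample overlapped with a CK sample of its temperature. The log2 fold change was 1.62, 2.35, and 1.37 at 22, 25, and 28°C (SE 0.166, adjusted p = 1.23e-06, 1.9e-08, and 7.37e-06 in limma).

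EXPA5, which in Arabidopsis is known to act downstream of brassinosteroid in shoot growth, had the largest expansin change on the log2(TPM + 1) scale. At 22°C, EXPA5 had 10.5, 9.66, and 5.3 TPM in Si, against 2.35, 1.33, and 0.51 TPM in CK. At 25°C, EXPA5 had 21.2, 15.1, and 12.1 TPM in Si, against 1.74, 2.11, and 2.08 TPM in CK. At 28°C, EXPA5 had 24, 21.9, and 15.5 TPM in Si, against 9.58, 6.14, and 4.72 TPM in CK. The groups were apart at each temperature, and the CK level itself was higher at 28°C than in the cooler CK groups. EXPA5 rose by 2.01, 2.49, and 1.48 at 22, 25, and 28°C (adjusted p = 5.21e-05, 4.85e-06, and 0.000778 in limma).

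EXPA6 rose alongside at all 3 temperatures. At 22°C, EXPA6 had 37.6, 38.6, and 33.3 TPM in Si, against 11.8, 11.5, and 9.03 TPM in CK. At 25°C, EXPA6 had 49.5, 49.4, and 48.7 TPM in Si, against 11.1, 10.9, and 15.2 TPM in CK. At 28°C, EXPA6 had 53.4, 64.2, and 54.5 TPM in Si, against 21.5, 27.6, and 26.3 TPM in CK. All Si samples lay above the CK samples of their temperature, and the Si samples at 25°C differed little from each other. The changes were 1.68, 1.92, and 1.16 at 22, 25, and 28°C (adjusted p = 7.03e-08, 9.58e-09, and 2.49e-06 in limma), and the change at 28°C was 0.92 and lost its call under median-of-ratios scaling.

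EXPA4 and EXPA15 rose at 25 and 28°C. At 25°C, EXPA4 had 25.8, 23.7, and 22 TPM in Si, against 4.2, 4.7, and 5.91 TPM in CK. At 28°C, EXPA4 had 24, 30.9, and 31.1 TPM in Si, against 9.26, 12.2, and 11.6 TPM in CK. At 22°C, EXPA4 had 12.8, 12.6, and 10.8 TPM in Si, against 6.18, 8.71, and 6.39 TPM in CK. EXPA4 was thus above CK in every Si sample, with changes of 0.70, 2.07, and 1.3 at 22, 25, and 28°C (adjusted p = 0.000639, 1.48e-08, and 2.71e-06 in limma), the first of which did not reach the fold threshold. At 22°C, EXPA15 had 3.75, 4.83, and 3.31 TPM in Si, against 2.77, 1.68, and 1.71 TPM in CK. At 25°C, EXPA15 had 16.5, 12.6, and 7.96 TPM in Si, against 1.13, 1.24, and 1.76 TPM in CK. At 28°C, EXPA15 had 9.07, 9.1, and 7.92 TPM in Si, against 2.85, 3.31, and 1.8 TPM in CK. The EXPA15 groups were apart at each temperature, with changes of 0.71, 2.45, and 1.43 (adjusted p = 0.0134, 2.46e-07, and 7.66e-05 in limma).

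EXPA3 was second to EXPA1 in abundance and rose at 25°C. At 22°C, EXPA3 had 70.1, 51.6, and 64.2 TPM in Si, against 34, 30.5, and 31.4 TPM in CK. At 25°C, EXPA3 had 106, 95.3, and 101 TPM in Si, against 32, 30.9, and 34.6 TPM in CK. At 28°C, EXPA3 had 96.3, 122, and 91.2 TPM in Si, against 58.8, 67.2, and 57.4 TPM in CK. Si samples lay above CK samples throughout, with changes of 0.92, 1.6, and 0.74 at 22, 25, and 28°C (adjusted p = 6.68e-06, 1.75e-08, and 5.93e-05 in limma).

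EXPA8 behaved differently, since its groups separated at 22 and 25°C and overlapped at 28°C. At 22°C, EXPA8 had 46.6, 38.6, and 28.9 TPM in Si, against 21.8, 13.5, and 15.5 TPM in CK. At 25°C, EXPA8 had 47.4, 44.8, and 51.2 TPM in Si, against 22.8, 23, and 24.3 TPM in CK. At 28°C, EXPA8 had 37, 46, and 39.5 TPM in Si, against 43.6, 43.2, and 41.4 TPM in CK. The 28°C levels of both treatments lay near the Si levels of the cooler groups. The changes were 1.12, 1.0, and -0.069 at 22, 25, and 28°C (adjusted p = 2.46e-05, 5.39e-05, and 0.731 in limma). Both calls lie at the fold threshold. The change at 22°C was 0.97 without Si replicate 1 and 0.98 without CK replicate 2, and the change at 25°C was 0.95 without Si replicate 3, 0.98 without CK replicate 1, and 0.99 without CK replicate 2. Under both other scalings it was 0.84 at 22°C, and at 25°C it was 0.71 with median-of-ratios scaling and 0.82 with quantile normalization.

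The 3 expansins tested but not in the plot of values by sample ranged from -0.70 for EXPA9 at 22°C to 1.14 for EXPA11 at 25°C. EXPA11 rose at 25°C (adjusted p = 1.06e-05 in limma), where it averaged 30.6 ± 2.26 TPM in Si and 13.3 ± 0.917 TPM in CK (SD, n = 3 each), and the change was 0.86 with median-of-ratios scaling and 0.90 with quantile normalization, both short of a call. EXPA9 averaged 7.89 ± 0.381 TPM in Si and 13.5 ± 0.817 TPM in CK at 22°C and 7.16 ± 0.869 TPM in Si and 5.04 ± 0.831 TPM in CK at 28°C. Its values passed on adjusted p alone, with Si below CK in every sample at 22 and 25°C and above CK at 28°C. EXPA16 averaged at most 2.69 ± 0.706 TPM, in Si at 28°C, and did not pass the call at any temperature.

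**Figure D2:**
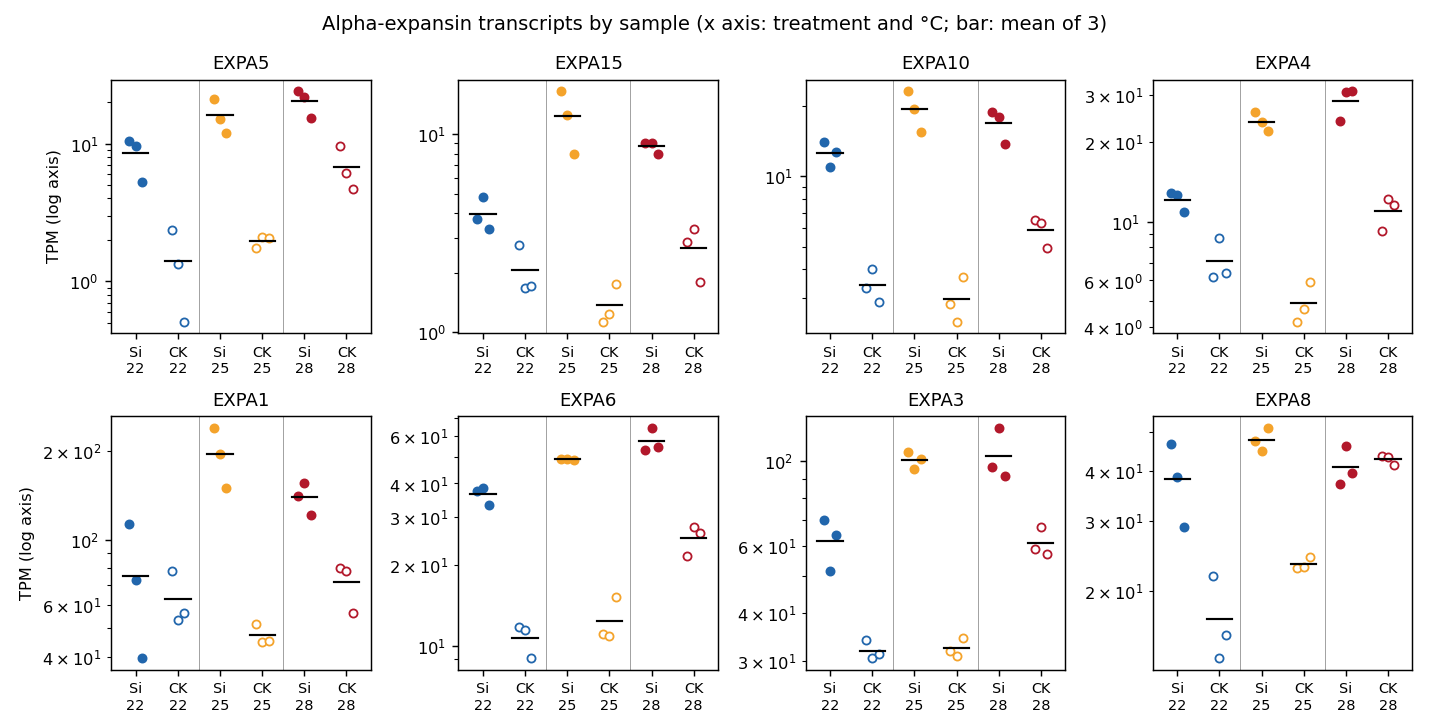
TPM of 8 alpha-expansins in each of the 18 samples (y axis, log scale, with its own range in each panel). Filled points are Si samples, open points are CK samples, and bars are means of 3. Si and CK points are apart at 25°C in all 8 panels, overlap at 22°C for EXPA1, and overlap at 28°C for EXPA8.

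XTH transcripts were the most abundant of the 3 families, and their make-up differed between Si and CK shoots. The 23 genes summed to 1876 ± 348 TPM in Si and 1781 ± 184 TPM in CK at 22°C (SD, n = 3 each), with overlapping samples. At 25°C the sum was 1491 ± 9.61 TPM in Si and 3229 ± 278 TPM in CK, and at 28°C it was 1921 ± 115 TPM in Si and 3576 ± 289 TPM in CK. Every Si sample lay below every CK sample at these temperatures. XTH24, first isolated as MERI5 from a meristem library, held 9.35 ± 2.25%, 11.3 ± 2.91%, and 18.9 ± 2.3% of the sum in Si at 22, 25, and 28°C, against 47.6 ± 3.58%, 55.9 ± 4.89%, and 52.1 ± 5.22% in CK (SD, n = 3 each). Without XTH24, the sum was 1706 ± 360.5 TPM in Si and 928 ± 40.7 TPM in CK at 22°C, 1323 ± 37.7 TPM in Si and 1417 ± 79.5 TPM in CK at 25°C, and 1557 ± 97.6 TPM in Si and 1703 ± 82.9 TPM in CK at 28°C. In this sum without XTH24, Si samples lay above CK samples at 22°C and overlapped with them at 25 and 28°C. XTH4, also called EXGT-A1, held the largest share in Si at 22 and 25°C, with 35.6 ± 5.66% and 36 ± 1.95%, against 13.9 ± 0.263% and 11.1 ± 0.885% in CK. At 28°C, XTH7 and XTH4 held similar shares in Si, 26.2 ± 1.89% and 26 ± 2.67%, against 4.36 ± 0.473% and 13.5 ± 1.92% in CK.

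**Figure D3:**
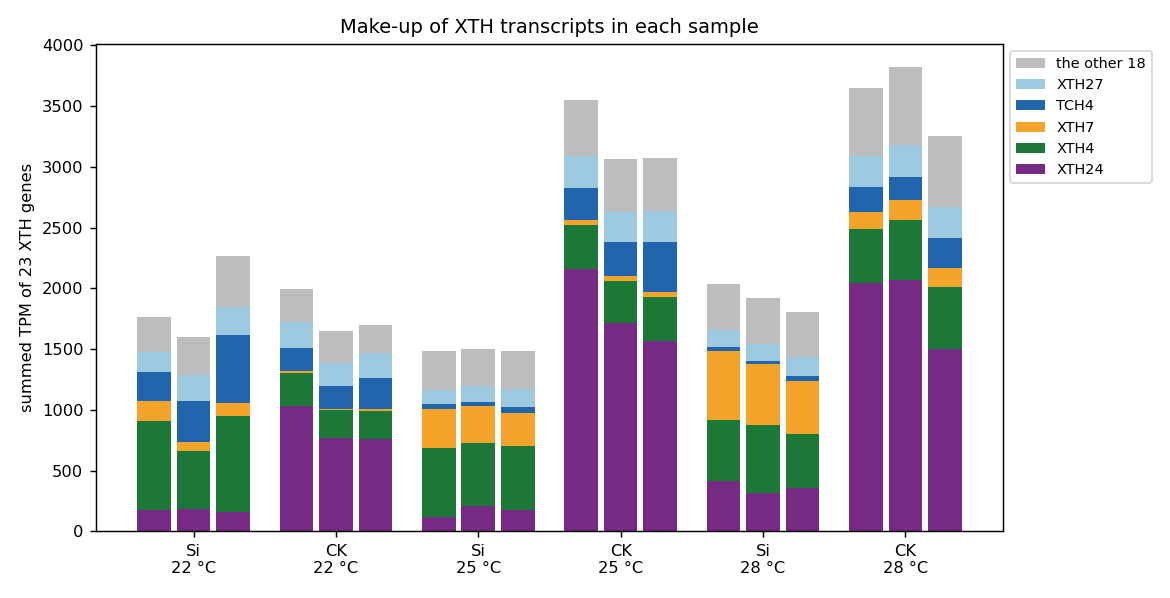
Summed TPM of the 23 XTH genes in each sample (y axis), stacked by gene for XTH24, XTH4, XTH7, TCH4, XTH27, and the other 18. XTH24 makes up 44.8 to 60.8% of every CK bar and 6.91 to 20.6% of every Si bar, and the XTH7 part grows with temperature in Si.

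By gene, 6 of the 21 tested XTHs rose and 3 fell at 22°C, 5 rose and 9 fell at 25°C, and 4 rose and 8 fell at 28°C. The median log2 fold change was 0.12 at 22°C (0.094 without XTH17, whose CK samples were listed at 0 there), -0.70 at 25°C, and -0.56 at 28°C. XTH15, XTH24, and XTH25 fell at all 3 temperatures, XTH6, XTH18, TCH4, XTH23, and XTH30 fell at 25 and 28°C, and XTH33 fell at 25°C. XTH7 and XTH17 rose at all 3, XTH8 at 22 and 25°C, XTH31 and XTH32 at 25 and 28°C, and XTH4, XTH9, and XTH16 at 22°C.

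Of the 8 XTHs that fell at both warm temperatures, 4 lie beside another of the 44 members, and such neighbours did not all move together. Neighbouring XTH genes outside the 44 members were not searched for. XTH24 (AT4G30270, chr4:14819192-14820595, minus strand), XTH18 (AT4G30280, chr4:14825757-14827211, minus strand), and XTH19 (AT4G30290, chr4:14828712-14830224, minus strand) follow each other on chromosome 4 with gaps of 5161 and 1500 bases and no gene between. XTH25 (AT5G57550, chr5:23304782-23306440, minus strand) and TCH4 (AT5G57560, chr5:23307006-23308680, minus strand) are 565 bases apart on chromosome 5. The 250 bases before the starts of XTH18, XTH19, XTH25, and TCH4 are shown, read from TAIR10.1 on the strand of each gene. Of these genes, only XTH19 did not fall. Capitals mark matches on either strand to CACATG, to CGTGTG or CGTGCG, to the rapid stress response element CGCGTT, and to the W-box TTGACC or TTGACT, the site of WRKY factors.
XTH18, chr4:14827212-14827461, minus strand: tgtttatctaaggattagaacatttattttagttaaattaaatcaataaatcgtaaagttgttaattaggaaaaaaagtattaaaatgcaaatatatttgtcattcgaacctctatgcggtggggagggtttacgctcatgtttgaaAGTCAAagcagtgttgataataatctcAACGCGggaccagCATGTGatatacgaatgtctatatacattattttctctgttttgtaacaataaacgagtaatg
XTH19, chr4:14830225-14830474, minus strand: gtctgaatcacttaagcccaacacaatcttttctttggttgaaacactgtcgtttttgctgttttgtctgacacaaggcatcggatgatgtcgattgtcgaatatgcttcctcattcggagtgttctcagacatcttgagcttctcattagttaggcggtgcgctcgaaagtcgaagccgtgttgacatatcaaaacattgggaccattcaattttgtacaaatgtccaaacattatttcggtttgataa
XTH25, chr5:23306441-23306690, minus strand: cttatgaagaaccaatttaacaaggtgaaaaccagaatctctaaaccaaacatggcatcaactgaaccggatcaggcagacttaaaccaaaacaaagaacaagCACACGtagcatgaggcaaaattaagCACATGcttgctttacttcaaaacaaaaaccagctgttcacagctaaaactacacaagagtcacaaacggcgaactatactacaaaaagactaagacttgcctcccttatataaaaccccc
TCH4, chr5:23308681-23308930, minus strand: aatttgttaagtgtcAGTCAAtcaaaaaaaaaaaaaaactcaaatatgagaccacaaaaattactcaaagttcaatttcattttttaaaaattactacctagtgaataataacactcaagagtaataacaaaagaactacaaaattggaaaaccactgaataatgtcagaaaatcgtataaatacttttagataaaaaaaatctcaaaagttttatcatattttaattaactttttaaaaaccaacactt
XTH18 holds 1 rapid stress element, 1 PBE-box, and 1 W-box, and XTH25 holds 1 PBE-box and 1 brassinosteroid element. TCH4 holds 1 W-box, and the window of XTH19 holds none of the motifs searched. The windows of XTH6, XTH15, and XTH30, which fell at both warm temperatures, hold none either, and that of XTH17, which rose, holds a PBE-box. The motifs were not tested against the expression values. Of all promoters of this length, 2.59% hold CGCGTT and 28.4% hold a W-box, against 3 and 9 of the 44 members. The sugar-repressible element TTATCC was in 12.5% of all promoters and in 5 members, and the evening element AAAATATCT in 2.36% and in 0 members. XTH18 and XTH19 share at most 9 bases in a row in these windows, as do XTH25 and TCH4, although the coding sequences of XTH18 and XTH19 are 87.6% identical. The longest run shared by the transcripts of these 2 genes is 68 bases, so short stretches of reads could not be placed between them.

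XTH24 fell at every temperature. At 22°C, XTH24 had 173, 181, and 157 TPM in Si, against 1028, 766, and 763 TPM in CK. At 25°C, XTH24 had 121, 208, and 177 TPM in Si, against 2158, 1711, and 1568 TPM in CK. At 28°C, XTH24 had 418, 313, and 359 TPM in Si, against 2045, 2070.5, and 1504 TPM in CK. The highest Si sample of any temperature lay below the lowest CK sample of any temperature. The log2 fold change was -2.3, -3.44, and -2.36 at 22, 25, and 28°C (SE 0.19, adjusted p = 1.6e-07, 1.83e-09, and 1.38e-07 in limma).

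Its neighbours XTH18 and XTH19, known from Arabidopsis roots, were far less abundant, and their values are given here after they were seen because of their place beside XTH24. XTH18 averaged 6.63 ± 2.36 TPM in Si and 6.01 ± 2.02 TPM in CK at 22°C, 3.84 ± 0.75 TPM in Si and 19 ± 6.49 TPM in CK at 25°C, and 12.2 ± 0.971 TPM in Si and 29.6 ± 7.06 TPM in CK at 28°C (SD, n = 3 each). XTH18 fell at 25 and 28°C, with -2.01 and -1.19 (adjusted p = 9.4e-06 and 0.00137 in limma), with the groups apart. XTH19 averaged 0.867 ± 0.319 TPM in Si and 0.113 ± 0.133 TPM in CK at 22°C, 2.51 ± 0.937 TPM in Si and 0.833 ± 0.313 TPM in CK at 25°C, and 5.66 ± 0.594 TPM in Si and 4.99 ± 1.89 TPM in CK at 28°C. Its changes of 0.74, 0.91, and 0.20 did not pass the call. At 22 and 25°C, XTH19 was higher in Si by adjusted p alone (0.0158 and 0.00389 in limma), with the groups apart at these low levels. The change at 28°C turned negative under median-of-ratios scaling and quantile normalization.

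XTH25 was close to 0 in Si shoots in the warmth. At 22°C, XTH25 had 2.59, 3.09, and 4.27 TPM in Si, against 13.2, 14.3, and 9.46 TPM in CK. At 25°C, XTH25 had 0.05, 0.1, and 0.56 TPM in Si, against 22.9, 20.4, and 21.6 TPM in CK. At 28°C, XTH25 had 0.26, 0.58, and 0.53 TPM in Si, against 21.4, 20.9, and 18.4 TPM in CK. Every Si sample at 25 and 28°C lay below 1 TPM, and every CK sample of these temperatures above 18 TPM. XTH25 fell, and its log2 fold change was -1.63, -4.22, and -3.87 at 22, 25, and 28°C (adjusted p = 2.1e-06, 1.84e-10, and 1.24e-09 in limma).

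TCH4, a gene known for rapid induction by touch, heat, cold, auxin, and brassinosteroid, differed between 22°C and the warmth. At 22°C, TCH4 had 238, 333, and 557 TPM in Si, against 188, 189, and 257 TPM in CK. At 25°C, TCH4 had 42.4, 33.7, and 51.2 TPM in Si, against 263, 283, and 406 TPM in CK. At 28°C, TCH4 had 25.6, 24.6, and 36.6 TPM in Si, against 206, 190.1, and 239 TPM in CK. The groups overlapped at 22°C, and every Si sample was below every CK sample at 25 and 28°C. The change was 0.76 ± 0.262 SE at 22°C (adjusted p = 0.0217, below the fold threshold), -2.87 at 25°C (adjusted p = 2.47e-07), and -2.85 at 28°C (adjusted p = 4.96e-07 in limma). The interaction, which tests whether the change at the warmer temperature differs from that at 22°C, was -3.62 at 25°C (adjusted p = 0.000168) and -3.61 at 28°C (adjusted p = 5.97e-05 in limma).

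The calmodulin genes that were found with TCH4 in the touch response were set beside it. CAM2, CML24, and CML12, known as TCH1, TCH2, and TCH3, all rose at 22°C, by 1.13, 1.81, and 1.66 (adjusted p = 1.44e-07, 4.47e-06, and 0.00207 in limma). At 25°C, 0 of the 3 passed, with values of 0.70, 0.28, and -0.77, and at 28°C only CAM2 rose, by 1.1 (adjusted p = 1.96e-07). The interaction was called lower for CML24 and CML12 at 25°C, at -1.53 and -2.43 (adjusted p = 0.00658 and 0.0145), and for CML24 at 28°C. None of the 3 fell at 25 or 28°C, where TCH4 fell.

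XTH15 is known as XTR7 and as a gene induced by shade. On the log2(TPM + 1) scale, it had the largest change of all members, at 25°C. At 22°C, XTH15 had 3.92, 2.72, and 5.46 TPM in Si, against 11.4, 15.1, and 8.59 TPM in CK. At 25°C, XTH15 had 0.87, 1.64, and 2.09 TPM in Si, against 61.4, 48.9, and 47.4 TPM in CK. At 28°C, XTH15 had 4.9, 2.22, and 2.77 TPM in Si, against 35.1, 90.2, and 60.8 TPM in CK. The groups were apart throughout, with the CK samples at 28°C widely spread. XTH15 fell, and its log2 fold change was -1.34, -4.42, and -3.83 at 22, 25, and 28°C (adjusted p = 0.00221, 2.32e-08, and 1.93e-07 in limma). XTH15 overlaps AT4G14120 on the opposite strand by 382 bases, and this partner was at most 1.93 TPM in any sample.

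XTH23, or XTR6, also fell in the warmth. At 22°C, XTH23 had 6.79, 7.35, and 7.94 TPM in Si, against 14.4, 7.28, and 15.4 TPM in CK. At 25°C, XTH23 had 3.36, 4.19, and 3.88 TPM in Si, against 39.3, 32.9, and 50.7 TPM in CK. At 28°C, XTH23 had 9.85, 7.57, and 12.1 TPM in Si, against 61.2, 69.5, and 54.8 TPM in CK. The groups overlapped at 22°C through 1 low CK sample and were apart at 25 and 28°C. The changes were -0.62 (adjusted p = 0.0269, below the fold threshold), -3.11 (adjusted p = 2.16e-08), and -2.55 (adjusted p = 2.87e-07 in limma).

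XTH6 had nearly equal levels in both treatments at 22°C. At 22°C, XTH6 had 36.3, 36.9, and 52 TPM in Si, against 49.9, 42.4, and 40.3 TPM in CK. At 25°C, XTH6 had 21.3, 15.5, and 19.2 TPM in Si, against 102, 104, and 80.0 TPM in CK. At 28°C, XTH6 had 25.4, 16.5, and 19.3 TPM in Si, against 141, 132, and 125 TPM in CK. The warm groups were far apart, the CK level having risen with temperature and the Si level having fallen below that at 22°C. XTH6 changed by -0.095 at 22°C (95% interval -0.45 to 0.26) and fell at 25 and 28°C, with -2.29 and -2.67 (adjusted p = 2.26e-08 and 1.09e-08 in limma).

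XTH7 had the largest positive change of the XTHs with a fold at 22 and 25°C. At 22°C, XTH7 had 164, 71.2, and 112 TPM in Si, against 18.4, 9.1, and 9.87 TPM in CK. At 25°C, XTH7 had 319.8, 307, and 276 TPM in Si, against 47.1, 36.4, and 43.1 TPM in CK. At 28°C, XTH7 had 573, 504, and 439 TPM in Si, against 140.5, 169.9, and 156 TPM in CK. The groups were apart at each temperature, and the level was higher at each warmer temperature in both treatments. XTH7 rose by 3.1, 2.81, and 1.69 at 22, 25, and 28°C (adjusted p = 1.6e-07, 2.3e-07, and 5.5e-05 in limma).

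XTH8 rose at 22 and 25°C. At 22°C, XTH8 had 20.2, 16.4, and 19.7 TPM in Si, against 3.41, 1.97, and 1.52 TPM in CK. At 25°C, XTH8 had 19.9, 16.6, and 14.9 TPM in Si, against 4.85, 3.46, and 4.59 TPM in CK. At 28°C, XTH8 had 24.9, 22.4, and 17.9 TPM in Si, against 13.9, 12.6, and 13.4 TPM in CK. Si samples lay above CK samples throughout, and the Si levels of the 3 temperatures overlapped each other. The change was 2.62, 1.78, and 0.66 at 22, 25, and 28°C (adjusted p = 2.92e-08, 6.79e-07, and 0.00595 in limma), the last below the fold threshold.

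**Figure D4:**
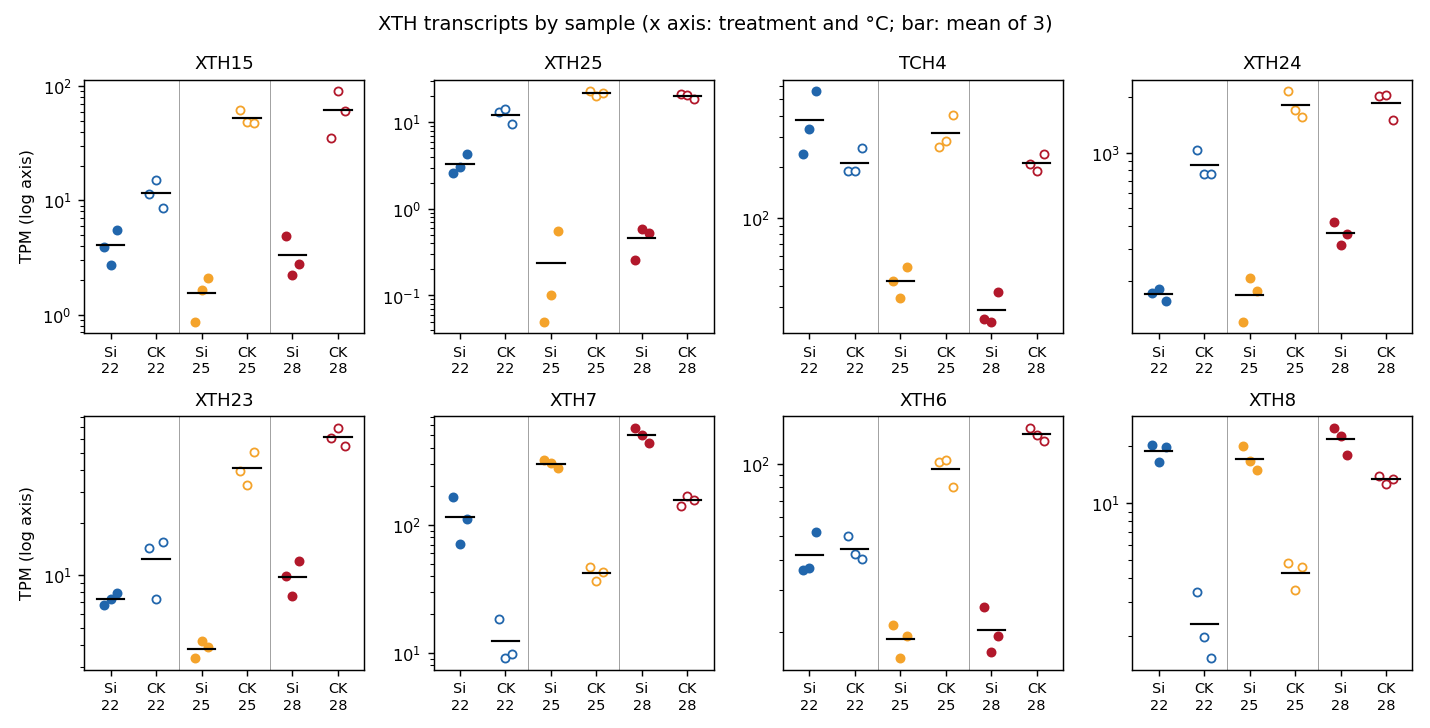
TPM of 8 XTH genes in each of the 18 samples (y axis, log scale, with its own range in each panel). Filled points are Si samples, open points are CK samples, and bars are means of 3. XTH15, XTH25, and XTH24 are lower in Si throughout, TCH4, XTH23, and XTH6 are apart at 25 and 28°C and overlap at 22°C, and XTH7 and XTH8 are higher in Si throughout.

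XTH31 and XTH32 form the group of XTH proteins predicted to hydrolyse xyloglucan rather than rejoin it, and were chosen for description after their values were seen. XTH31 averaged 7.96 ± 2.16 TPM in Si and 7.58 ± 0.44 TPM in CK at 22°C, 48.5 ± 3.55 TPM in Si and 8.2 ± 1.38 TPM in CK at 25°C, and 49.4 ± 10.4 TPM in Si and 11.3 ± 2.09 TPM in CK at 28°C (SD, n = 3 each). It rose by 2.44 and 2.03 at 25 and 28°C (adjusted p = 2.48e-08 and 3e-07 in limma), with overlapping groups at 22°C, where the change was 0.035 (95% interval -0.34 to 0.41) and turned negative under both other scalings. XTH32 averaged 6.08 ± 1.31 TPM in Si and 2.6 ± 0.597 TPM in CK at 22°C, 15 ± 1.11 TPM in Si and 2.81 ± 0.257 TPM in CK at 25°C, and 23.2 ± 3.59 TPM in Si and 6.85 ± 0.786 TPM in CK at 28°C. Its groups were apart at each temperature, with changes of 0.98, 2.07, and 1.62 (adjusted p = 5.37e-05, 2.16e-08, and 4.92e-07 in limma), the first just short of the fold threshold.

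XTH17, a close relative of XTH18 and XTH19 that is known mainly from roots, was listed at 0 in all 3 CK samples at 22°C, where Si had 2.15, 1.09, and 1.49 TPM. At 25°C, XTH17 had 3.54, 3.13, and 3.63 TPM in Si, against 0.09, 0, and 0.06 TPM in CK. At 28°C, XTH17 had 4.37, 8.42, and 5.58 TPM in Si, against 0.52, 0.17, and 0.32 TPM in CK. The groups were apart at each temperature, all at low levels. XTH17 rose by 2.08 and 2.38 at 25 and 28°C (adjusted p = 2.15e-07 and 1.04e-07 in limma), it is counted among the genes that rose at 22°C, and no fold is given there. The summed level of the 10 root markers was 0.45 to 1.98 TPM in Si and 0.6 to 2.16 TPM in CK at 22°C, 1.83 to 2.7 TPM in Si and 2.63 to 2.88 TPM in CK at 25°C, and 2.22 to 3.19 TPM in Si and 4.74 to 9.46 TPM in CK at 28°C. The root hair markers COBL9, RHD6, RSL4, PRP3, EXPA7, and EXPA18 were at most 0.65 TPM in any sample. CASP1 of the root endodermis fell at 28°C (-1.29, adjusted p = 0.000271 in limma), where XTH17 rose.

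XTH4, XTH9, and XTH16 rose only by the 22°C comparison, and in Arabidopsis XTH4 and XTH9 are known to act in wood formation. XTH4 averaged 670.3 ± 163 TPM in Si and 246 ± 24 TPM in CK at 22°C, 537 ± 27.2 TPM in Si and 358 ± 5.16 TPM in CK at 25°C, and 499 ± 59.5 TPM in Si and 480.2 ± 35.9 TPM in CK at 28°C (SD, n = 3 each), with changes of 1.41, 0.58, and 0.05 (adjusted p = 8.8e-07, 0.00209, and 0.779 in limma). XTH9 had changes of 1.33, 0.18, and -0.064, and XTH16 of 1.51, -0.081, and -0.52 at 22, 25, and 28°C. At 28°C, XTH16 was lower in Si by adjusted p alone (0.0225 in limma), with every Si sample below every CK sample. The values of XTH4 at 28°C and of XTH9 at 25°C turned sign under median-of-ratios scaling.

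The other 5 tested XTHs ranged from -1.34 for XTH30 at 25°C to 0.33 for XTH33 at 22°C, a value that turned negative with quantile normalization. XTH30 fell at both warm temperatures, with -1.34 at 25°C (limma adjusted p = 7.49e-05) and -1.01 at 28°C (adjusted p = 0.00113), where the value was -0.89 without Si replicate 1, -0.95 without Si replicate 2, and -0.90 without CK replicate 3, none of which reached the call. XTH33, which is anchored in the plasma membrane, fell by 1.05 at 25°C (adjusted p = 0.00203), and the value was -0.84 and short of a call without CK replicate 3. XTH27, known from xylem cells of leaf veins, was abundant, with 131 ± 14.9 TPM in Si and 254 ± 6.58 TPM in CK at 25°C (SD, n = 3 each), and its changes of -0.96 and -0.81 at 25 and 28°C missed the fold threshold with the groups apart. XTH5 was below CK in every Si sample, with changes of -0.61, -0.70, and -0.56 that did not reach the fold threshold.

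Cellulose synthases had the narrowest range of changes of the 3 families, between -0.077 for CESA7 at 22°C and 1.47 for CESA5 at 25°C. Of the 5 primary wall genes, CESA5, known from the cellulose of seed coat mucilage, rose at 22 and 25°C. By adjusted p alone, 5, 4, and 4 of the 5 were higher at 22, 25, and 28°C, against 47.4%, 47.8%, and 43.5% of all genes higher and 10.7%, 13.5%, and 11.9% lower by this criterion. Of the 3 secondary wall genes, 0 passed at any temperature, by either criterion. The primary set summed to 351 ± 33 TPM in Si and 223 ± 29.8 TPM in CK at 22°C, 366 ± 6.8 TPM in Si and 280.3 ± 6.19 TPM in CK at 25°C, and 397 ± 23.3 TPM in Si and 332 ± 10.8 TPM in CK at 28°C (SD, n = 3 each). Si samples lay above CK samples at each temperature in this sum. The secondary set summed to 7.59 ± 1.21 TPM in Si and 6.94 ± 1.59 TPM in CK at 22°C, 8.43 ± 0.678 TPM in Si and 7.2 ± 1.19 TPM in CK at 25°C, and 11.8 ± 2.34 TPM in Si and 11.5 ± 1.33 TPM in CK at 28°C, with overlapping samples.

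CESA5 stood out among the cellulose synthases. At 22°C, CESA5 had 26.5, 23.5, and 22.5 TPM in Si, against 9.45, 7.17, and 7.73 TPM in CK. At 25°C, CESA5 had 28.9, 29.5, and 28.3 TPM in Si, against 9.39, 9.01, and 11 TPM in CK. At 28°C, CESA5 had 31, 29.7, and 27.3 TPM in Si, against 15.4, 14.5, and 15.5 TPM in CK. The groups were apart at each temperature. CESA5 rose by 1.47 at 22°C and by 1.47 at 25°C (adjusted p = 1.52e-08 and 5.93e-09 in limma), and its change at 28°C was 0.91 (adjusted p = 1.25e-06), under the fold threshold.

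CESA6 has a coding sequence 84.5% identical to that of CESA5, with a longest shared transcript run of 50 bases. At 22°C, CESA6 had 71.2, 63, and 67.7 TPM in Si, against 37.6, 27.8, and 35.4 TPM in CK. At 25°C, CESA6 had 60.0, 66.3, and 64.7 TPM in Si, against 44.4, 43.5, and 47.3 TPM in CK. At 28°C, CESA6 had 74.5, 73.9, and 71.6 TPM in Si, against 53.8, 58.6, and 59.5 TPM in CK. The CESA6 groups were apart at each temperature, with changes of 0.99, 0.49, and 0.35 (adjusted p = 2.76e-07, 0.000171, and 0.00308 in limma).

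CESA1 and CESA3, which form the core of the primary wall complex, and CESA2, a relative of CESA6, changed by less. At 22°C, CESA1 had 115, 95.6, and 104 TPM in Si, against 86.3, 69.3, and 85.5 TPM in CK. At 22°C, CESA3 had 124, 97.5, and 116 TPM in Si, against 80.0, 61.6, and 78.7 TPM in CK. At 22°C, CESA2 had 48.6, 39.2, and 40.5 TPM in Si, against 31.9, 23.5, and 28.1 TPM in CK. All 3 had every Si sample above every CK sample at 22°C. The share of all genes apart in this way was not computed. Among all genes, 47.4% were higher in Si at 22°C by adjusted p alone, and the all-gene median there was 0.26. Their changes at 22, 25, and 28°C were 0.38, 0.12, and 0.073 for CESA1, 0.61, 0.37, and 0.23 for CESA3, and 0.61, 0.41, and 0.27 for CESA2. The values of CESA1 at 25 and 28°C lie below the all-gene median. The values of CESA1 at 25 and 28°C and of CESA3 at 28°C turned negative under median-of-ratios scaling.

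CESA4, CESA7, and CESA8, which make the cellulose of xylem secondary walls, were at a few TPM. At 28°C, CESA4 had 4.41, 4.57, and 6.25 TPM in Si, against 4.05, 5.0, and 4.97 TPM in CK. At 28°C, CESA7 had 2.76, 3.94, and 4.15 TPM in Si, against 3.16, 3.8, and 4.07 TPM in CK. At 28°C, CESA8 had 2.34, 3.26, and 3.78 TPM in Si, against 2.77, 3.65, and 3.01 TPM in CK. The groups overlapped for all 3 genes at 22 and 28°C. The 95% intervals of the change at 28°C were -0.24 to 0.42 for CESA4, -0.37 to 0.31 for CESA7, and -0.37 to 0.34 for CESA8. CESA8 overlaps AT4G18770 on the opposite strand by 481 bases, and this gene was at most 0.12 TPM.

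**Figure D5:**
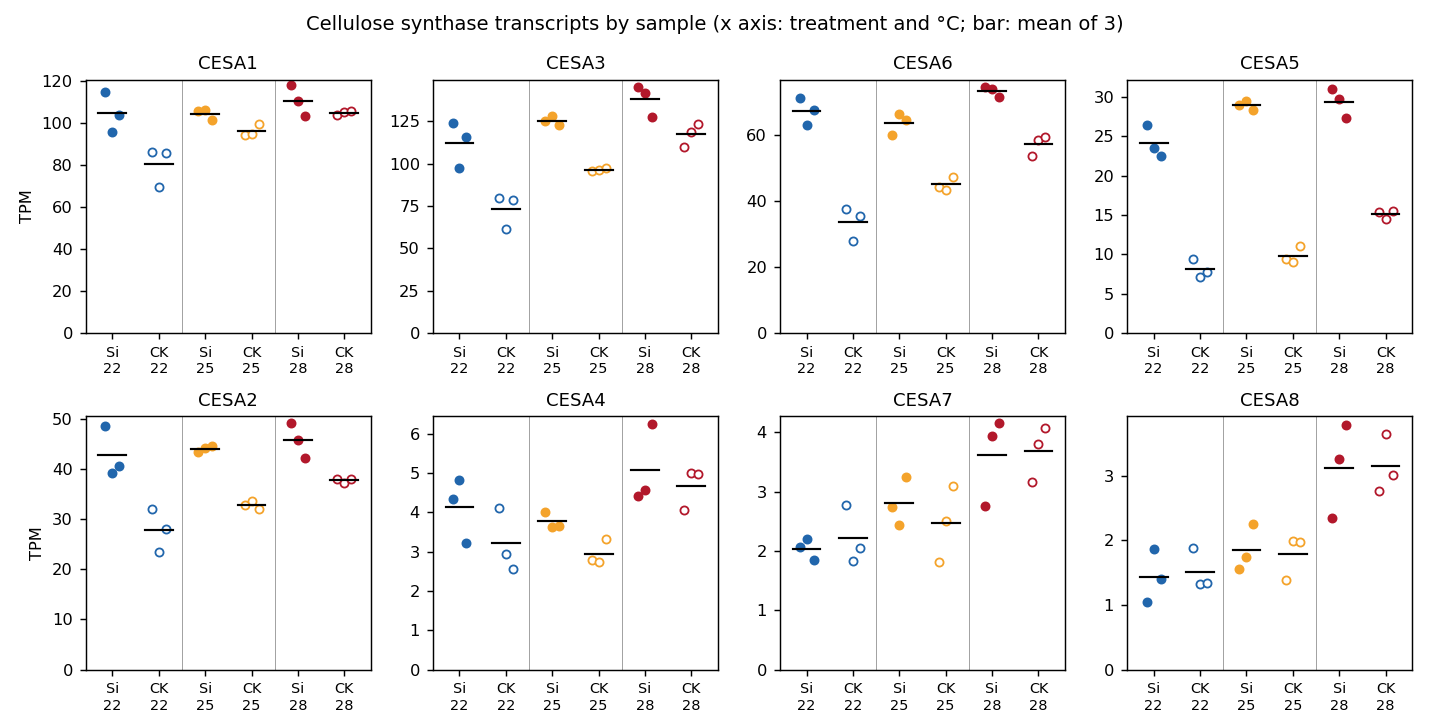
TPM of the 8 cellulose synthase genes in each of the 18 samples (y axis, linear and starting at 0, with its own range in each panel). Filled points are Si samples, open points are CK samples, and bars are means of 3. CESA5 and CESA6 are apart at every temperature, and Si and CK points of CESA7 and CESA8 overlap at every temperature.

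Warmth alone was compared in Si and in CK shoots, because the effect of S. indica at the warmer temperatures is set by both levels. These comparisons share their samples with those of Si against CK and are given side by side. In Si, 5 members rose and 3 fell at 25°C against 22°C (0.843% and 1.32% of all genes), and 9 rose and 3 fell at 28°C against 22°C (5.27% and 1.37% of all genes). In CK, 7 rose and 0 fell at 25°C against 22°C (0.424% and 0.145% of all genes), and 14 rose and 1 fell at 28°C against 22°C (4.24% and 0.649% of all genes). The 7 that rose in CK at 25°C and 11 of the 14 that rose at 28°C were XTHs. The median over all genes was 0.19 at 28°C against 22°C in Si and 0.22 in CK.

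In Si, TCH4 fell by 3.59 at 28°C against 22°C (adjusted p = 1.2e-07 in limma), against a change of 0.015 in CK. XTH25 fell by 1.56 in Si and had 0.69 in CK, below the fold threshold. XTH31 rose by 2.5 in Si and had 0.51 in CK. XTH6 fell by 1.0 in Si, a value that was -0.84 without Si replicate 3 at 22°C, -0.87 without Si replicate 2 and -0.97 without Si replicate 3 at 28°C, none of them called, while it rose by 1.57 in CK. EXPA1 rose by 1.0 in Si, with 0.61 without Si replicate 3 at 22°C, and 0.99 and 0.92 without Si replicates 1 and 2 at 28°C, and EXPA5 by 1.2, with 0.93 without Si replicate 3 at 22°C. Each of these left-out samples ended the call.

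In CK, XTH7 rose by 3.6 at 28°C against 22°C (adjusted p = 1.25e-07 in limma), XTH19 by 2.38, XTH23 by 2.29, XTH15 by 2.24, XTH8 by 2.16, and XTH18 by 2.14. XTH23, XTH15, and XTH18 thus belong both to the XTHs that rose with warmth in CK and to those that fell with S. indica in the warmth, and in Si their changes at 28°C against 22°C were 0.36, -0.24, and 0.83, none of them called. XTH24 rose by 1.08 in Si, where it was 0.98 and short of a call without Si replicate 1 at 28°C, and by 1.13 in CK. With median-of-ratios scaling, EXPA1, EXPA4, EXPA5, and XTH24 in Si and EXPA6, XTH9, XTH24, and XTH32 in CK lost their call at 28°C against 22°C. XTH32 rose by 1.14 in CK, with 0.99 and no call without CK replicate 3 at 22°C. Among expansins, EXPA5 rose in CK by 1.73, EXPA8 by 1.31, and EXPA6 by 1.15, while EXPA9 fell by 1.27 (adjusted p = 3e-07). All 8 cellulose synthases were higher by adjusted p alone at 28°C in CK (41.2% of all genes), with a median of 0.61, and 0 of them were called.

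The effect of S. indica itself differed between temperatures for many members by the interaction term of limma, called on adjusted p alone. At 25°C relative to 22°C, 6 interactions were higher and 14 lower among the 40 members, against 4.37% and 5.36% of all genes. At 28°C relative to 22°C, 4 were higher and 15 lower, against 6.92% and 10.2% of all genes. Both terms use the samples at 22°C. By family, 4 expansins were higher and 0 lower at 25°C, and 1 was higher and 1 lower at 28°C. For XTHs, 2 were higher and 13 lower at 25°C, and 3 were higher and 12 lower at 28°C, where the count includes XTH17 as higher. No fold is given for this XTH17 interaction, whose sign turned negative with a pseudocount of 0.1. Of the primary wall cellulose synthases, CESA6 was lower at both temperatures and CESA5 at 28°C.

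The 4 expansins with a larger effect at 25 than at 22°C were EXPA1 (1.85, adjusted p = 0.0112 in limma), EXPA15 (1.74, adjusted p = 0.00466), EXPA4 (1.37, adjusted p = 0.00149), and EXPA3 (0.68, adjusted p = 0.0159). At 28°C, none of these 4 interactions passed, with values between -0.18 for EXPA3 and 0.81 for EXPA1. XTH31 had the largest positive interaction, 2.4 at 25°C and 1.99 at 28°C. The most negative were those of TCH4, XTH15 (-3.08 at 25°C), XTH25 (-2.59), XTH6 (-2.57 at 28°C), and XTH23 (-2.49 at 25°C). XTH24 had -1.14 at 25°C (adjusted p = 0.0173) and -0.052 at 28°C (adjusted p = 0.921).

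Genes that make the substrates of these enzymes, or work beside them, were taken from lists of known members. Of the 7 xyloglucan synthesis genes, 4 rose at 22°C and 3 rose at 25°C, whereas 0 passed at 28°C, and 0 were called lower. XXT1 was lower in Si by adjusted p alone at 25°C (12.4 TPM in Si and 20.0 TPM in CK on average) and at 28°C (12.6 and 19.6 TPM). For this list and those below, the shares of all genes were 8.0%, 9.43%, and 7.95% higher at 22, 25, and 28°C. The shares lower were 1.34%, 2.69%, and 1.72%. CSLC4, which makes the glucan backbone of xyloglucan, rose by 2.45 at 22°C (adjusted p = 1.26e-08 in limma) and 1.22 at 25°C, where it averaged 24.5 ± 1.76 TPM in Si and 9.99 ± 1.33 TPM in CK (SD, n = 3 each). XLT2 and MUR3, both galactosyltransferases of xyloglucan side chains, rose by 1.76 and 1.05 at 22°C. The summed level of the 7 genes ran from 161 to 189 TPM in Si and from 74.1 to 83 TPM in CK at 22°C, from 143 to 152 TPM in Si and from 93.7 to 107 TPM in CK at 25°C, and from 155 to 171 TPM in Si and from 115 to 129.5 TPM in CK at 28°C (n = 3 each), without overlap. The median change of the list was 1.05, 0.75, and 0.69 at 22, 25, and 28°C.

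Of 15 other expansin and expansin-like genes, 6 were tested, of which 3 rose and 1 fell at 22°C, 4 rose and 1 fell at 25°C, and 2 rose and 1 fell at 28°C. EXPB3, a beta-expansin, rose by 1.2, 2.47, and 1.52, and the expansin-like EXLB1 by 1.59, 2.12, and 2.31. The expansin-like EXLA1 fell, with changes of -1.04, -3.15, and -2.59 (adjusted p = 0.00026, 3.85e-09, and 4.97e-08 in limma). Of 10 other XTH genes, 1 was tested, XTH11, which fell at 28°C (-1.18, adjusted p = 1.52e-06).

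Among 10 partners of cellulose synthesis, 7 were tested, and 2, 2, and 1 rose at 22, 25, and 28°C while 0 fell. CC2, a companion of cellulose synthase that links the complex to microtubules, had log2 fold changes of 1.21, 1.68, and 1.78 (limma adjusted p = 4.09e-06, 9.2e-08, and 1.01e-07), and CC1 rose by 1.17 at 22°C. Of 11 secondary wall enzymes, 0 rose, and FRA8, an enzyme of xylan synthesis, fell at 25 and 28°C, with -1.65 and -1.26 (adjusted p = 2e-05 and 0.000329). Of 10 secondary wall regulators and xylem proteases, 4 were tested, and XCP1, a protease of xylem cells, rose by 1.69 at 25°C (adjusted p = 1.95e-05).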

How the data were processed

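RNA from the aboveground parts of wild-type seedlings was sequenced in 18 samples, 3 in each of 6 groups. The authors deposited TPM per gene. By the study's methods, trimmed reads were aligned to the TAIR10 genome, RSEM gave the abundances, and differential genes were tested on counts, which are not used here. The sample protocol instead lists trimming with SeqPrep and Sickle, alignment with HISAT2, and assembly with StringTie. The tool versions were not given in the sources used here. Neither source says whether reads were counted by strand. TPM keeps no depth, so counting error is unknown.

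From the deposited TPM, log2(TPM + 1) was fitted with limma 3.58.1 (variance trend) in R 4.3.3 as 6 group means over all 18 samples, with 12 residual degrees of freedom, keeping 20044 genes that reached 1 TPM in 3 or more samples. All 9 comparisons were two-sided, with Benjamini-Hochberg adjustment over genes. Since TPM are not counts, no count test was run. The fit was tested on simulated data. Values in every sample are given for up to 8 called members per family with the largest change and for cellulose synthases. Other members are given by range or as chosen after their values were seen, and from each other list at most 3 called genes are named, by size of change. The members, the lists, and the rule were chosen with earlier results of these data known. Gene positions, coding sequences, and the 250 bases before each start came from RefSeq TAIR10.1, in which a transcript length equals the length in the table for 44 of 44 members and 32374 of 32548 genes with exons. The sequence before XTH24 is not reported here. Alternatives were pseudocounts of 0.1 and 0.5, no filter or one at 5 TPM, median-of-ratios scaling, quantile normalization, a replicate block, only the groups compared, no fold threshold, and each sample left out.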

Additional observations from a re-analysis of the deposited data

Results flagged for a closer look

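The results below were marked because the effect of S. indica differed between temperatures by the interaction term in limma, with p adjusted over all genes. A positive value means a log2 fold change of Si over CK that was higher at the warmer temperature than at 22°C. Groups of 3 samples are too small for the outlier check, which was not run. No explanation was tested.

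Higher at 25°C were among expansins EXPA1 (1.85, adjusted p = 0.0112), EXPA3 (0.68, adjusted p = 0.0159), EXPA4 (1.37, adjusted p = 0.00149), and EXPA15 (1.74, adjusted p = 0.00466). Higher at 25°C were among XTHs XTH31 (2.4, adjusted p = 0.000168) and XTH32 (1.1, adjusted p = 0.00602). Lower at 25°C were among XTHs XTH4 (-0.83, adjusted p = 0.0173), XTH6 (-2.2, adjusted p = 0.000181), XTH8 (-0.84, adjusted p = 0.0481), XTH9 (-1.14, adjusted p = 0.0282), XTH15 (-3.08, adjusted p = 0.00147), XTH16 (-1.59, adjusted p = 0.00231), XTH18 (-2.13, adjusted p = 0.00364), TCH4 (-3.62, adjusted p = 0.000168), XTH23 (-2.49, adjusted p = 0.000585), XTH24 (-1.14, adjusted p = 0.0173), XTH25 (-2.59, adjusted p = 0.000168), XTH27 (-0.95, adjusted p = 0.00179), and XTH33 (-1.38, adjusted p = 0.0262). Lower at 25°C was among cellulose synthases CESA6 (-0.50, adjusted p = 0.0205).

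Higher at 28°C was among expansins EXPA9 (1.14, adjusted p = 0.000163). Lower at 28°C was among expansins EXPA8 (-1.19, adjusted p = 0.00247). Higher at 28°C were among XTHs XTH31 (1.99, adjusted p = 0.000201) and XTH32 (0.64, adjusted p = 0.0482). Lower at 28°C were among XTHs XTH4 (-1.36, adjusted p = 0.000467), XTH6 (-2.57, adjusted p = 2.26e-05), XTH7 (-1.41, adjusted p = 0.0152), XTH8 (-1.96, adjusted p = 0.000223), XTH9 (-1.39, adjusted p = 0.00631), XTH15 (-2.48, adjusted p = 0.00218), XTH16 (-2.03, adjusted p = 0.000189), XTH18 (-1.31, adjusted p = 0.0251), TCH4 (-3.61, adjusted p = 5.97e-05), XTH23 (-1.93, adjusted p = 0.00104), XTH25 (-2.24, adjusted p = 9.47e-05), and XTH27 (-0.80, adjusted p = 0.00206). Lower at 28°C were among cellulose synthases CESA5 (-0.56, adjusted p = 0.00945) and CESA6 (-0.64, adjusted p = 0.00296).

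Some of these interactions lost their call when 1 sample was left out. At 25°C this held for XTH8 (13 removals, adjusted p up to 0.101), for XTH9 and XTH33 (4 removals each, up to 0.0642 and 0.0638), and for CESA6 without Si replicate 1 at 25°C (0.0525). At 28°C it held for XTH18 (4 removals, up to 0.0672) and for XTH32 (14 removals, up to 0.113).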

How the results depend on the processing

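Of 136 called values of single members over the 9 comparisons, 2 are those of XTH17 at 22°C and in the interaction at 28°C, where a group is listed at 0, and are left out of the counts that follow. With a pseudocount of 0.1, that XTH17 interaction changed sign. Of the other 134, 109 kept their call in every alternative that tested them, 25 lost it in at least 1, and 0 changed sign. The filter at 5 TPM tested 129 of the 134, and the alternative without a fold threshold did not apply to interactions. Leaving out 1 sample gave 2349 values that kept their call and 63 that lost it. Each of the 18 samples was left out for each value, including samples outside the comparison. Removing such a sample cannot move the fold change and acts only through the spread and the adjusted p. The number kept thus includes many removals that could hardly end a call. Median-of-ratios scaling lost 16, quantile normalization 10, a fit of only the groups compared 6, no filter 5, and a pseudocount of 0.1 or 0.5 lost 1 each.

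Without the fold threshold, members called higher numbered 23 and lower 6 for Si against CK at 22°C, and higher 18 at 28°C. For 25°C against 22°C, they numbered 12 higher and 7 lower in Si and 15 higher and 1 lower in CK. For 28°C against 22°C, they numbered 19 higher and 5 lower in Si, and 32 higher in CK. This follows from the construction, which calls more genes. With a pseudocount of 0.1 or 0.5, the interaction at 28°C was higher for 2 members. With median-of-ratios scaling, 5 members rose at 28°C against 22°C in Si and 4 at 25°C against 22°C in CK, and with quantile normalization 4 rose at 25°C in CK. The cause of these was not tested.

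With 1 sample left out, members called higher for Si against CK numbered 11 to 14 at 22°C, 14 to 16 at 25°C, and 9 to 10 at 28°C, and lower 3, 8 to 10, and 7 to 8. Interactions numbered 6 to 8 higher and 11 to 14 lower at 25°C, and 3 to 5 higher and 14 to 20 lower at 28°C. For warmth in Si, 5 to 6 were higher and 2 to 4 lower at 25°C, and 7 to 10 higher and 2 to 3 lower at 28°C. For warmth in CK, 6 to 7 were higher at 25°C and 14 to 16 at 28°C, with 0 and 1 lower. XTH6 lost its call at 25°C against 22°C in Si without Si replicate 3 at 22°C (-0.95) or replicate 2 at 25°C (-0.99). XTH16 and XTH24 lost theirs in CK without CK replicate 1 at 25°C (0.97 and 0.96), and XTH16 also without CK replicate 3 at 22°C (0.89).

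With the replicate number as a block, all 134 of these values kept their call. The block gave 9 higher and 15 lower interactions at 25°C and 5 and 15 at 28°C, and the other counts did not differ. Same-numbered samples had correlations of -0.0667 to 0.162 in their deviations from group means, with 3 of 21 pairs above 0.1. Deviations from means of 3 samples cannot settle whether same-numbered samples were handled together.

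With 3 samples a group and no counts, changes in genes below a few TPM, such as XTH17, XTH19, XTH33, and the secondary wall cellulose synthases, rest on the fewest transcripts. Transcripts with near-identical stretches, such as XTH18 with XTH19 and CESA5 with CESA6, depend on how reads were split between them.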
